A study of Mus musculus with 15 samples.

Results

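The genes that differ in eyecups of mice with 1 mutant allele of Tmem135 were described by comparing 6 FUN025/+ libraries with 4 WT libraries. All genes with at least 1 CPM, by library totals without scaling, in 4 or more of these 10 libraries were included. This kept 17786 of the 55421 genes listed. The CPM values given below are the read count of a gene after division by the TMM-scaled library size, in the standard CPM unit. The tissue was the posterior eyecup, that is, the retinal pigmented epithelium (RPE), choroid and sclera after removal of the neural retina, and the eyecups of each mouse were pooled into 1 library. WT mice were C57BL/6J mice without the mutation, FUN025/+ mice carried the Tmem135 FUN025 allele on 1 chromosome on the same background, and all mice were 2.5 months old, of both sexes and untreated. A further 5 libraries from FUN025/FUN025 mice of that age and background entered the fit, so that all 15 mice shared 1 estimate of the spread, and are used here for the step from 1 to 2 mutant alleles and for a check of the genotype labels. The FUN025 mutation is present in every cell of the body, so that a difference in the eyecup need not have begun there.

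TMEM135 is a protein with several membrane-spanning segments that is found on mitochondria and peroxisomes and has been linked to the division of mitochondria. The RPE is a pigmented layer that renews visual pigment, engulfs shed photoreceptor tips and handles large amounts of fatty acids and cholesterol. Sterol and fatty acid synthesis are controlled in most cells by SREBP transcription factors, which the protein INSIG holds in the endoplasmic reticulum when sterols are plentiful and which proteases release in the Golgi when sterols fall.

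Every WT library was deeper than every FUN025/+ library. Total counts were 18094977 to 20029919 in WT libraries and 10903183 to 13456349 in FUN025/+ libraries, and 3 counts, taken as the floor, corresponded to 0.15 to 0.166 CPM and 0.223 to 0.275 CPM. This floor covers counting error only. No batch is labelled, so any batch made up of WT libraries cannot be told apart from genotype. In a principal component analysis of log2 CPM, the leading axis took 27.2% of the variance, and on it WT libraries lay between -41.8 and -10.8 and FUN025/+ libraries between -5.37 and 29.1. The labelled tissue was checked by its markers. RPE markers (Rpe65, Rlbp1, Lrat, Rgr, Best1 and Ttr) summed to 15842 to 18778 CPM in WT and 15701 to 20101 CPM in FUN025/+ libraries. Lens markers reached at most 13.7 CPM in WT and 81.1 CPM in FUN025/+ libraries. Some libraries held more of a neighbouring tissue than others. The summed level of the rod and cone phototransduction list was 4853 CPM in WT replicate 2 and 1877 to 2746 CPM in the other WT libraries, and Krt12, a keratin of the corneal epithelium, was at 969.8 CPM in FUN025/+ replicate 6 and at most at 64.6 CPM in the other FUN025/+ libraries. Xist, which female cells express from the inactive X chromosome, was at 665 CPM or more in 2 of 4 WT and 3 of 6 FUN025/+ libraries and at most at 11.3 CPM in the others. The number of high libraries equals the number of females that the study lists for WT mice but differs from it for both mutant genotypes. Sex is not labelled for single libraries, so which library departs from that list is not known. By label, Scd1, a desaturase, was at 74.9 to 111 CPM in FUN025/+ and 305 to 381 CPM in FUN025/FUN025 libraries and Srebf1, an SREBP gene, at 155 to 192 CPM and 255 to 302 CPM, with no overlap between the genotypes.

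Tmem135 itself was slightly higher with 1 mutant allele. Its gene lies on chromosome 7 (89139714 to 89404222, GRCm38). It was at 59.4, 63.8, 65.8 and 66.4 CPM in the WT libraries, and its lowest, median and highest values in FUN025/+ libraries were 66.2, 74.3 and 85.9 CPM. Only the lowest FUN025/+ library fell within the WT range. The fold change was 1.17 (log2 fold change 0.23, SE 0.0639, adjusted p = 0.0213 by edgeR's quasi-likelihood test with Benjamini-Hochberg adjustment, the test used throughout). With an offset for GC content, described below, it was 0.17 on the log2 scale with an adjusted p of 0.0703, and without WT replicate 4 it was 0.20 with an adjusted p of 0.0822. Of 113 protein-coding genes tested within 10 Mb of Tmem135, 3 were higher and 6 lower (2.65% and 5.31%, against 6.04% and 7.46% of all protein-coding genes).

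At an adjusted p under 0.05, 2563 genes differed between FUN025/+ and WT eyecups, which is 14.4% of the genes tested. Of these, 1356 (7.62% of the genes tested) were higher and 1207 (6.79%) lower in FUN025/+ eyecups. Most differences were small: the median size among the genes called was 0.31 on the log2 scale, and 1871 of them changed by less than 0.5. Only 136 genes were more than 2-fold higher and 71 more than 2-fold lower, and protein-coding genes made up 24 and 27 of these. The CPM ranges of the 2 genotypes did not overlap for 2008 genes (11.3% of those tested), 1696 of which were called. When all libraries were thinned to the total of the shallowest, 2276 genes were called, 2086 of them among the 2563. Without WT replicate 4, 1456 genes were called, and with the muscle and photoreceptor levels of each library as covariates 273 were. Each mouse gave 1 library, so the p-values measure the spread between mice.

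The share of genes called depended on gene type. Of 14528 protein-coding genes tested, 877 were higher and 1084 lower. Pseudogenes (176 higher and 49 lower of 648) and genes antisense to another gene (181 higher and 28 lower of 1193) were higher in most of the cases that passed the test. The labels name a library kit that does not mark the strand, so that reads of an antisense gene and of its partner cannot be told apart. Pseudogenes took 0.4% to 0.427% of the counts in WT and 0.472% to 0.491% in FUN025/+ libraries. Gm42418, a noncoding gene on chromosome 17 that lies over a copy of ribosomal RNA sequence, was at 447 to 564 CPM in WT and 2413 to 3444 CPM in FUN025/+ libraries. The part of these levels in the results below was not tested, and protein-coding genes are described from here on.

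Among protein-coding genes the direction of the difference followed base composition. Of genes with 38% to 42% GC in their exons, 17.1% were higher and 2.5% lower in FUN025/+ eyecups, and of those with 58% GC or more, 0.754% were higher and 16.3% lower. The median GC content was 44.1% for genes that were higher, 54.7% for genes that were lower and 49.9% for all those tested. Long transcripts were also more often higher: of genes with 8000 or more exonic bases 12% were higher and 4.49% lower, and of those under 1000 bases 7.12% were higher and 13.3% lower. When each library was given an offset that removed its own trend with GC content, 1853 genes of all types were called (10.4% of the 17786 tested). Of these, 1046 were higher and 807 lower, and 1533 were called in the same direction without the offset. Among protein-coding genes, 577 were higher and 687 lower with the offset. The tilt was then smaller, with 11 genes higher and 22 lower under 38% GC, 79 genes higher and 80 lower at 38% to 42% GC and 46 higher and 60 lower at 58% or more. For this reason the counts below are also given with the GC offset where it changes them. A total of 1004 protein-coding genes, 465 higher and 539 lower, were called in the same direction with and without it.

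**Figure D1:**
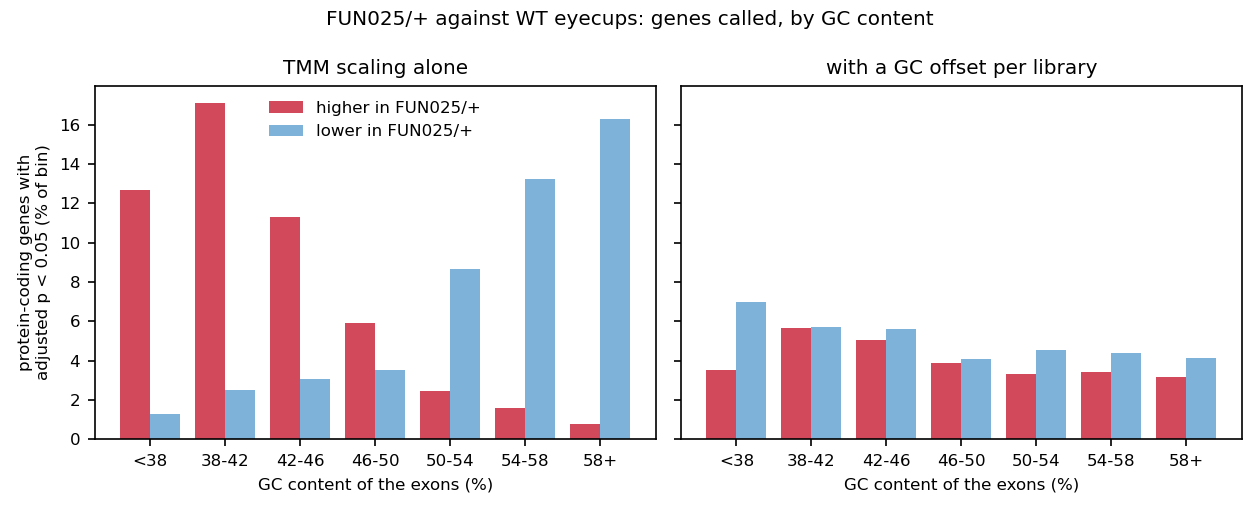
Share of the tested protein-coding genes with an adjusted p under 0.05 (vertical axis, % of the genes in each class) by the GC content of their exons (horizontal axis, %), higher in FUN025/+ in red and lower in blue, without (left) and with (right) an offset for GC content in each library. Without the offset, 17.1% of genes at 38% to 42% GC were higher and 16.3% of genes at 58% GC or more were lower, and with it 46 and 60 genes at 58% GC or more were higher and lower.

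The share of genes called also differed between chromosomes. It was largest for lower genes on chromosome 17, where 11.8% of 693 protein-coding genes were lower and 4.62% higher. With the GC offset 34 were lower there and 16 higher. On chromosome 7, which carries Tmem135, 2.41% of 1120 protein-coding genes were higher and 10.9% lower, and with the GC offset 31 were higher and 60 lower. On the X chromosome, 11.6% of 492 genes were higher and 2.44% lower, and with the offset 23 were higher and 17 lower. The median GC content of the genes tested was 52.9% on chromosome 7, 52.8% on chromosome 17 and 45.4% on the X chromosome.

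Gene lists that cover the cell types and pathways of this tissue moved by different amounts. The list with the most genes higher in FUN025/+ eyecups was sterol synthesis, and those with the most genes lower were the cytosolic ribosome, the nuclear-encoded respiratory chain, the mitochondrial ribosome, the choroid endothelium and striated muscle. The median log2 fold change over all genes tested was -0.0004. Lists whose medians lay furthest from 0, such as rod and cone phototransduction (-1.17) and the surface epithelia of the eye (0.92), held 0 genes that passed edgeR's quasi-likelihood test.

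**Figure D2:**
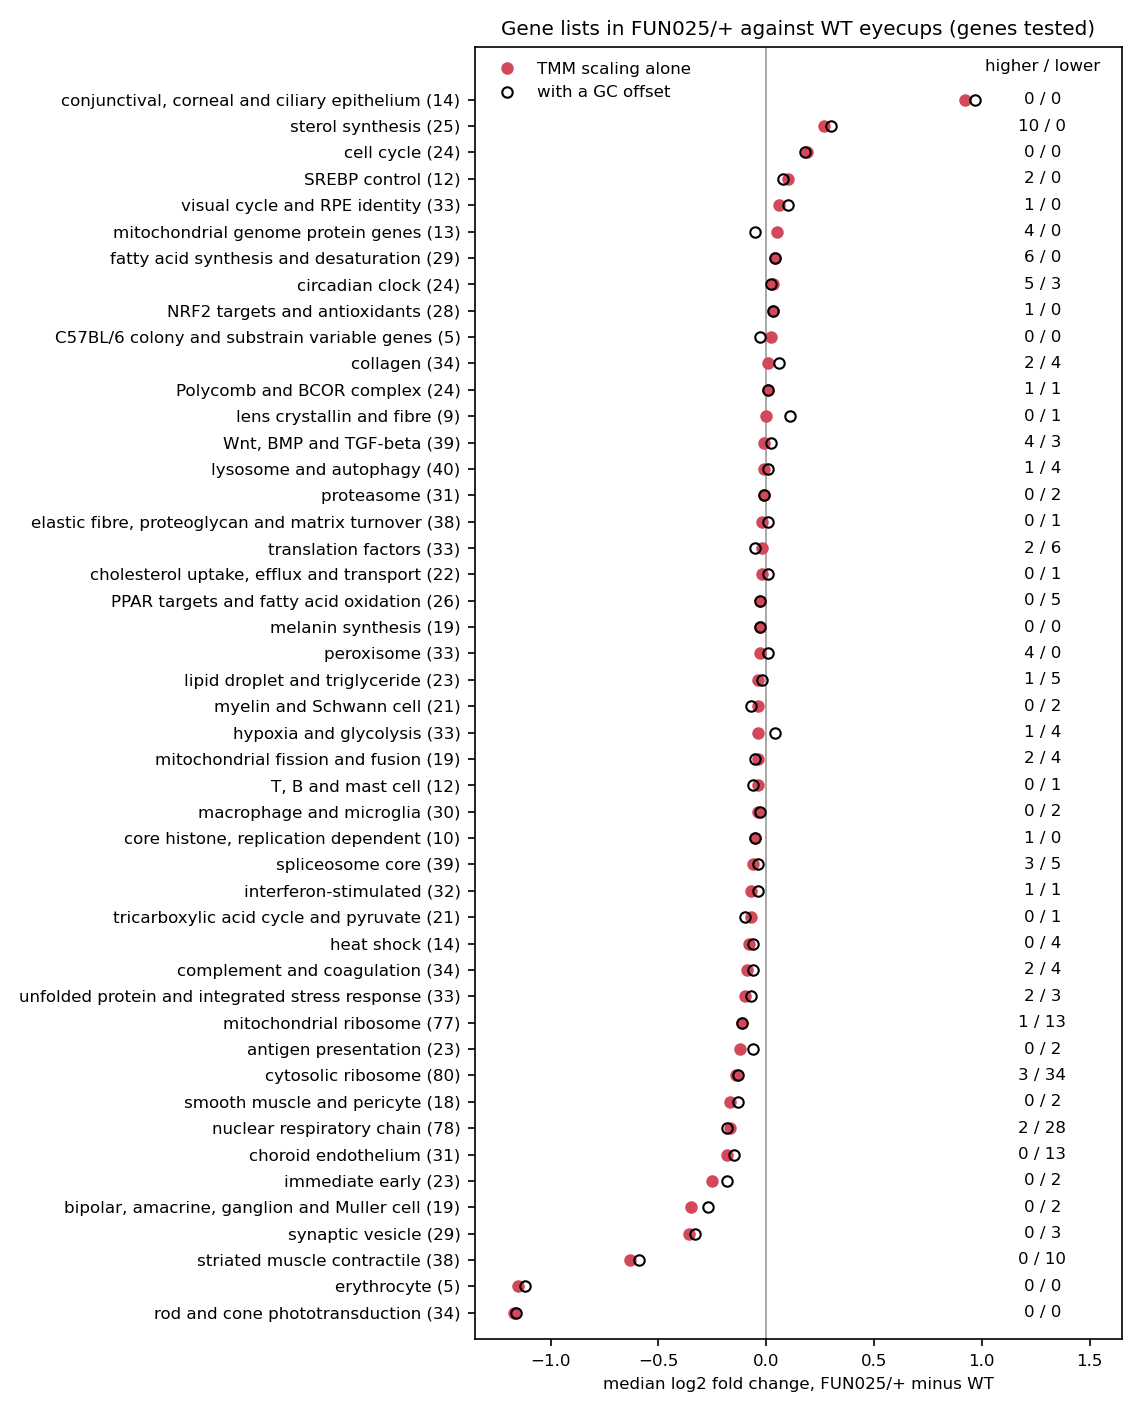
Median log2 fold change of the tested genes of each list in FUN025/+ against WT eyecups (horizontal axis), for the fit without (filled red) and with (open black) the GC offset, with the number of genes tested in parentheses and the number higher and lower at an adjusted p under 0.05 at the right. Sterol synthesis stands at 0.27 with 10 genes higher and 0 lower, and the nuclear respiratory chain at -0.17 with 2 higher and 28 lower.

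Genes of sterol synthesis were higher with 1 mutant allele. Of 25 genes on the list, 10 rose (40%, against 7.62% of all genes tested) and 0 fell, and 23 had a positive log2 fold change, with a median of 0.27. With the GC offset 10 rose, with a median of 0.30, among them Mvd, which makes isopentenyl diphosphate (0.37, adjusted p = 0.0209), in place of Cyp51 (0.28, adjusted p = 0.0903). Without the offset, the 10 genes were Hmgcs1, which makes HMG-CoA for the mevalonate pathway, Idi1, which isomerises isopentenyl diphosphate, Sqle, which forms squalene epoxide, Lss, which closes it to lanosterol, the demethylating enzymes Cyp51 and Msmo1, the reductases Hsd17b7 and Dhcr7, the sterol carrier Stard4 and the SREBP-retaining protein Insig1. Summed over the list, the level was 986 to 1059 CPM in WT and 1148 to 1427 CPM in FUN025/+ libraries, so that the 2 ranges did not overlap.

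Insig1, whose own transcription SREBP activates, was at 65.2, 68.8, 79.3 and 89.6 CPM in WT libraries and at 103 (lowest), 111 (median) and 126 CPM (highest) in FUN025/+ libraries. The groups did not overlap, and the level rose 1.5-fold (log2 fold change 0.59, SE 0.0938, adjusted p = 0.000652). Idi1 showed the largest rise of the list. It was at 11.4, 12.4, 14.2 and 15.4 CPM in WT libraries and at 17.3, 20.6 and 25 CPM in FUN025/+ libraries (log2 fold change 0.66, SE 0.111, adjusted p = 0.000696), and 27.1% of its exonic sequence is shared with other genes. Stard4, which carries cholesterol between membranes, was at 16.2, 17.7, 18.7 and 21 CPM in WT libraries and at 23.1, 25.2 and 30.3 CPM in FUN025/+ libraries (log2 fold change 0.48, adjusted p = 0.0016). All 3 genes were higher in each FUN025/+ library than in any WT library.

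Hmgcs1, the first committed enzyme on the list, was at 91.4, 97.7, 103 and 118 CPM in WT libraries and at 128, 139 and 158 CPM in FUN025/+ libraries (log2 fold change 0.46, adjusted p = 0.00241). Sqle, an oxygen-dependent control point of the pathway, was at 67 to 72.5 CPM in WT and 78.1 to 100.3 CPM in FUN025/+ libraries (0.32, adjusted p = 0.00914). The other 5 rose by 0.29 (Dhcr7) to 0.45 (Hsd17b7) on the log2 scale, and the 2 genotypes did not overlap for any of the 10. The same held for 1696 of the 2563 genes called and for 11.3% of all genes tested. Among the other 15 genes, Fdft1, which makes squalene (0.11), Fdps, which makes farnesyl diphosphate (0.18), and Mvk, the mevalonate kinase (0.01), did not pass the test.

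The proteins that control SREBP formed a list of their own. Of 12 such genes, 2 rose (16.7%, against 7.62% of all genes tested) and 0 fell (against 6.79%), and with the GC offset 3 rose and 1 fell. The 2 that rose without the offset were Insig1 and Mbtps2, the site-2 protease that cuts SREBP in the Golgi. Mbtps2 was at 40, 42.3, 43.5 and 45.2 CPM in WT and at 46.5, 51 and 55.3 CPM in FUN025/+ libraries (log2 fold change 0.25, adjusted p = 0.00311). Srebf2, which encodes the SREBP that acts mainly on sterol genes, changed by 0.11 and Srebf1 by 0.08, and neither passed the test. The SREBP chaperone gene Scap stood at -0.01.

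Promoter sequence was examined for the sterol genes, 10 of which rose. RefSeq promoter windows of 250 bases before to 50 bases after the start of the gene (GRCm38.p6) were at hand for 17 of the 25 genes. The CCAAT box, which binds the factor NF-Y, a partner of SREBP on many sterol promoters, was searched as CCAAT on both strands and occurred in 15 of the 17 windows (88.2%), against 38% of 12191 windows of tested genes. The core of the sterol regulatory element, searched as TCACNCCAC on both strands, occurred in 1 of 17 (5.88%), against 1.13% of the windows of tested genes. Among the 8 genes that rose and had a window, 7 held a CCAAT box, as did 8 of the 9 genes with a window that did not rise. The windows of Hmgcs1 (chr13:119690101-119690400, plus strand), which held both motifs, of Idi1 (chr13:8885356-8885655, plus strand), which had the largest rise, and of Msmo1 (chr8:64733529-64733828, minus strand), with 3 CCAAT boxes, are given 5′ to 3′ with the matches in capitals. ATTGG is the CCAAT box read on the other strand.
Hmgcs1: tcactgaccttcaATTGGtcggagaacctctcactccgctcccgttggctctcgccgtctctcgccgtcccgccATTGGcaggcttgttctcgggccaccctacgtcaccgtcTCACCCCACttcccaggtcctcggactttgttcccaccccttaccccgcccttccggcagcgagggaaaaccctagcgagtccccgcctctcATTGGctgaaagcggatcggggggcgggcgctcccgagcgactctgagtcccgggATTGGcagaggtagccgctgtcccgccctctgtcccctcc
Idi1: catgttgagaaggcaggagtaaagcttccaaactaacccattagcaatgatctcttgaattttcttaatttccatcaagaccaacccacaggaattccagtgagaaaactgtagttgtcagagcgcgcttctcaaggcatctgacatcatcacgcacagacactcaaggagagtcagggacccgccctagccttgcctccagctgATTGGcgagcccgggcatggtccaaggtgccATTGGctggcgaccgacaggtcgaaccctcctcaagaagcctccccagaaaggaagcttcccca
Msmo1: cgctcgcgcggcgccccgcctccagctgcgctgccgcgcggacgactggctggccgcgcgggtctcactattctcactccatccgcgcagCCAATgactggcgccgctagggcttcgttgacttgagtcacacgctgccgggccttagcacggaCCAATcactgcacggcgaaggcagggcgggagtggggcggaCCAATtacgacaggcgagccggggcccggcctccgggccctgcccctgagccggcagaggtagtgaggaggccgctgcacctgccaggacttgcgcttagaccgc
These matches are a description of the windows and not of binding.

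Fatty acid synthesis formed another list. Of 29 genes, 6 rose (20.7%, against 7.62% of all genes tested) and 0 fell, with a median of 0.04, and with the GC offset 7 rose and 0 fell. They were Acaca, which makes malonyl-CoA, the elongases Elovl2 and Elovl6, the desaturases Scd2 and Fads1, and Idh1, a cytosolic source of NADPH. Idh1 was at 74.7, 75.6, 76.5 and 78.3 CPM in WT and at 86.8, 91.3 and 93.7 CPM in FUN025/+ libraries, with a narrow spread in both groups (log2 fold change 0.25, SE 0.0401, adjusted p = 0.000463). Scd2, a stearoyl-CoA desaturase, was at 481, 507, 524 and 529 CPM in WT and at 566, 663 and 719 CPM in FUN025/+ libraries (0.36, adjusted p = 0.00138). Elovl6, which extends palmitate, was at 54.2 to 60.3 CPM in WT and 66.4 to 85.4 CPM in FUN025/+ libraries (0.32, adjusted p = 0.00549). None of these 3 overlapped between the genotypes, and neither did 1696 of the 2563 genes called.

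The other 23 members of the fatty acid list did not pass the test. Scd1, the desaturase paralogous to Scd2, had 96.0 ± 11.8 CPM (SD, n = 4) in WT and 98.2 ± 12.5 CPM (SD, n = 6) in FUN025/+ eyecups (log2 fold change 0.03, adjusted p = 0.861). Fasn, the fatty acid synthase, was at 145 ± 2.44 CPM (SD, n = 4) and 149 ± 11.7 CPM (SD, n = 6), and Srebf1, which drives both genes in many tissues, at 166 ± 16.7 and 176 ± 13.9 CPM. These 3 genes differed between 1 and 2 mutant alleles, with log2 differences of 1.82 for Scd1, 0.39 for Fasn and 0.67 for Srebf1 between FUN025/FUN025 and FUN025/+ eyecups (adjusted p = 3.58e-08, 0.00013 and 1.25e-05). With the muscle and photoreceptor levels of each library as covariates, 0 genes of the sterol list and 1 of the fatty acid list passed the test, while the sterol median was 0.21. Without WT replicate 3, 3 genes of the fatty acid list rose. Cyp51, Acaca and Fads1 each lost the call when any of 4 or more single libraries was left out.

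**Figure D3:**
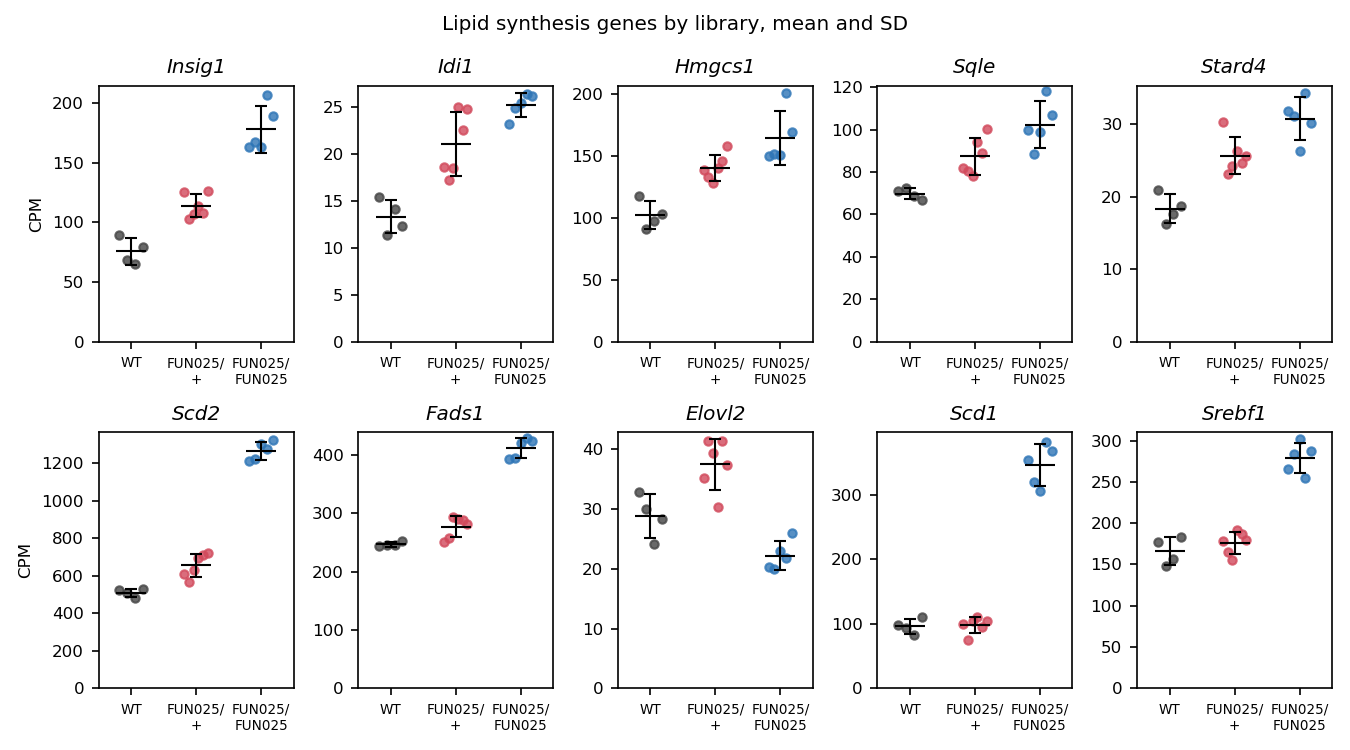
CPM of 10 genes of sterol and fatty acid synthesis (vertical axes, from 0) in each WT, FUN025/+ and FUN025/FUN025 library, with the mean as a line and the SD as bars. For Insig1 the FUN025/+ libraries lie at 103 to 126 CPM, above WT libraries at 65.2 to 89.6 CPM, whereas for Scd1 and Srebf1 the FUN025/+ and WT points overlap and the FUN025/FUN025 points lie above both.

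Most genes of fat burning and storage that changed were lower. Of 26 targets of the lipid sensor PPAR and enzymes of fatty acid oxidation, 0 rose and 5 fell (19.2%, against 6.79% of all genes tested), with a median of -0.03. The number was 4 with the GC offset, 3 without WT replicate 4 and 0 with the muscle and photoreceptor levels of each library as covariates. Pdk4, which switches off pyruvate dehydrogenase in fasting and fat use, was at 36.9, 40.5, 46.3 and 47.5 CPM in WT and at 17.3, 22.6 and 30.5 CPM in FUN025/+ libraries, and its level fell to 0.537 of WT (log2 fold change -0.90, SE 0.13, adjusted p = 0.000334). Ucp3, a mitochondrial carrier of muscle, fell as well (-0.57, adjusted p = 0.00782), and so did the receptor Ppard (-0.26) and Acadvl, which opens the oxidation of long fatty acids (-0.14). Etfb, which passes electrons from this pathway to the respiratory chain, fell by 0.85 on the log2 scale, but 49.9% of its exonic sequence is shared with other genes, so its level is uncertain. Of 23 lipid droplet and triglyceride genes, 1 rose (4.35%, against 7.62% of all genes tested) and 5 fell (21.7%, against 6.79%). Gpam, which starts triglyceride synthesis, was the gene that rose (0.28, adjusted p = 0.0097). The falls were those of the phosphatase Lpin1 (-0.41), the droplet proteins Plin4 and Fitm1, and the lipases Pnpla2 and Mgll. With the GC offset 1 of the 23 genes rose and 1 fell, which was Lpin1. Leaving out single libraries gave 1 to 4 falls, the former without WT replicate 3 and 2 other libraries. Plin4 lost the call in 6 and Pnpla2 in 3 of these 10 fits.

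Of 33 peroxisome genes, 4 rose (12.1%, against 7.62% of all genes tested) without the GC offset and 0 with it. They were Far1 and Agps, which make ether lipids, the fatty acid importer Abcd3, and Scp2. Their log2 fold changes were 0.18 to 0.26. The Pex genes on the list, which build and divide peroxisomes, had values of -0.16 (Pex11a) to 0.16 (Pex3) and did not pass the test. Without WT replicate 4, 1 of the 33 genes rose.

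Respiratory chain genes of the nucleus were lower with 1 mutant allele. Of 78 genes, 28 fell (35.9%, against 6.79% of all genes tested) and 2 rose, and 66 had a negative log2 fold change, with a median of -0.17. With the GC offset 27 fell and 2 rose. Without the offset, genes fell in each complex: 15 of 37 in complex I, 1 of 4 in complex II, 3 of 9 in complex III, 5 of 13 in complex IV and 4 of 14 in ATP synthase. The falls with the GC offset were 11 in complex I, 0 in complex II, 4 in complex III, 6 in complex IV and 6 in ATP synthase. The exceptions were Ndufc2 of complex I (0.25, adjusted p = 0.00417) and Cox7c of complex IV (0.23, adjusted p = 0.0213), which rose, the latter not without WT replicate 1 or 3, nor with the GC offset (0.12, adjusted p = 0.281), where Atp5g2 of ATP synthase rose in its place (0.22, adjusted p = 0.0151). Short genes made up most of the falls. Of 35 genes with under 1500 exonic bases 21 fell, with a median of -0.32, and of 43 longer genes 7 fell, with a median of -0.11. With an offset for transcript length in place of GC content, 31 of the 78 genes fell. Without WT replicate 4, 18 fell, and with the muscle and photoreceptor levels of each library as covariates 6 did. The muscle levels given below were lower in 4 of 6 FUN025/+ libraries than in any WT library, and their part in these falls was not tested.

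Atp5k, the small e subunit of ATP synthase, showed the clearest fall of a mitochondrial gene. It was at 65.5, 69.2, 69.4 and 90 CPM in WT libraries and at 28.9, 32.3 and 34.4 CPM in FUN025/+ libraries. The groups were far apart (fold change 0.436, log2 fold change -1.20, SE 0.0901, adjusted p = 1.32e-07). Ndufa3, an accessory subunit of complex I, was at 69.9, 73.3, 77.4 and 96.4 CPM in WT and at 46.2, 49.8 and 54.3 CPM in FUN025/+ libraries (-0.67, adjusted p = 1.9e-05). Ndufb10, another accessory subunit, was at 91.7 to 108 CPM and 63.9 to 75.9 CPM (-0.46, adjusted p = 7.49e-05). Cox7a1, the form of a complex IV subunit made in heart and skeletal muscle, was at 22.6 to 35.9 CPM in WT and 9.14 to 18.6 CPM in FUN025/+ libraries (-1.01, adjusted p = 0.00418).

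Genes of the mitochondrial genome are described separately. Among the 8 of 13 protein genes with under 90% of their exonic sequence shared with other genes, 7 did not pass the test without the GC offset, with a median of -0.14 and 6 of them negative. With the offset mt-Nd2 (-0.50, adjusted p = 0.0102) and mt-Nd4 (-0.34, adjusted p = 0.0105), subunits of complex I, fell, and the median was -0.27. The 7 summed to 32139 to 36239 CPM in WT and 28150.4 to 38696 CPM in FUN025/+ libraries, and mt-Co1, a core subunit of complex IV, was at 13504 ± 497 CPM (SD, n = 4) and 14001 ± 1564 CPM (SD, n = 6). The exception was mt-Atp8, at 0.663 to 1.11 CPM in WT and 1.97 to 4.61 CPM in FUN025/+ libraries (1.77, adjusted p = 9.83e-05), whose gene overlaps mt-Atp6. The 5 genes with over 90% of their exonic sequence shared with other genes, 3 of which rose (mt-Co2, mt-Co3 and mt-Nd3), summed to 104 to 131 CPM in WT and 251 to 409 CPM in FUN025/+ libraries. Their levels are uncertain because reads could be split with the genes that share the sequence.

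Of 77 genes of the mitochondrial ribosome, 13 fell (16.9%, against 6.79% of all genes tested) and 1 rose, with a median of -0.11. Under the GC offset 12 fell and 0 rose, and without WT replicate 4, 4 fell. With the muscle and photoreceptor levels of each library as covariates 1 fell and 0 rose. The 3 falls with the smallest p were those of Mrps15 (-0.39, adjusted p = 0.00269), Mrpl52 (-0.44, adjusted p = 0.00275) and Mrpl18 (-0.31, adjusted p = 0.00509), and Mrpl47 rose (0.25, adjusted p = 0.0133). Among 19 genes of mitochondrial fission and fusion, Yme1l1, a protease that processes the fusion protein OPA1, and Tmem135 rose (10.5%, against 7.62% of all genes tested), and 4 fell (21.1%, against 6.79%). These were Immt and Chchd3, which shape the cristae, Mtfp1, which promotes fission, and Mief2, which recruits the fission GTPase. Immt was at 121, 122, 123 and 129 CPM in WT and at 102, 106 and 112 CPM in FUN025/+ libraries (-0.21, SE 0.0445, adjusted p = 0.00398). The fission GTPase Dnm1l (0.04) and the fusion genes Mfn1, Mfn2 and Opa1 (-0.07 to 0.12) did not pass the test. With the GC offset 0 genes of this list rose and 4 fell, and with the muscle and photoreceptor covariates 0 rose and 0 fell.

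Cytosolic ribosomal proteins were the other large group of lower genes. Of 80 genes, 34 fell (42.5%, against 6.79% of all genes tested) and 3 rose (3.75%, against 7.62%), with a median of -0.14. With the GC offset 29 fell and 5 rose. With the muscle and photoreceptor covariates 17 fell. Both subunits took part, with 21 of 46 genes of the large and 13 of 33 of the small subunit lower. Rps29, a small-subunit protein, was at 158, 167, 169 and 195 CPM in WT and at 75.4, 82.8 and 96.5 CPM in FUN025/+ libraries, and its level fell to 0.486 of WT (log2 fold change -1.04, SE 0.0655, adjusted p = 1.72e-08). Rps12 was at 157, 161, 171 and 198 CPM and at 83.5, 92.3 and 95.6 CPM (-0.92, adjusted p = 4.51e-08). Rpl21, of the large subunit, was at 92.5 to 111 CPM and 66.4 to 72.6 CPM (-0.51, adjusted p = 3.12e-06). The 3 that rose were Rps2 (0.39), Rplp0 (0.28) and Rpl15 (0.28), the first at 251 to 316 CPM in WT and 342 to 403 CPM in FUN025/+ libraries.

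Ribosomal protein genes have many processed copies, so reads can be split between a gene and its pseudogenes. Of 23 ribosomal protein genes that share at most 20% of their exonic sequence with other genes, 12 fell and 0 rose (median -0.20), and of the 57 that share more, 22 fell and 3 rose (median -0.10). Pseudogenes named after a ribosomal protein went the other way, with 25 of 48 higher and 4 lower and a median of 0.53. They summed to 225 to 253 CPM in WT and 299 to 332 CPM in FUN025/+ libraries, whereas the 80 genes summed to 15396 to 18152 CPM and 14525 to 16149 CPM. Whether the pseudogene counts move with those of the parent genes was not tested. Among 33 translation factors, of which 18.2% were lower and 6.06% higher against 6.79% and 7.62% of all genes tested, 6 fell, led by Eif3i (-0.31, adjusted p = 0.000758), Eef1b2 (-0.26) and Eef1d (-0.32), and Eif4a2 (0.22) and Eif5 (0.17) rose. In all, 7 fell and 1 rose with the GC offset. Eef1a2, the elongation factor of muscle and neurons, which is named for its size of change, fell by 0.96 on the log2 scale (adjusted p = 0.00708).

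**Figure D4:**
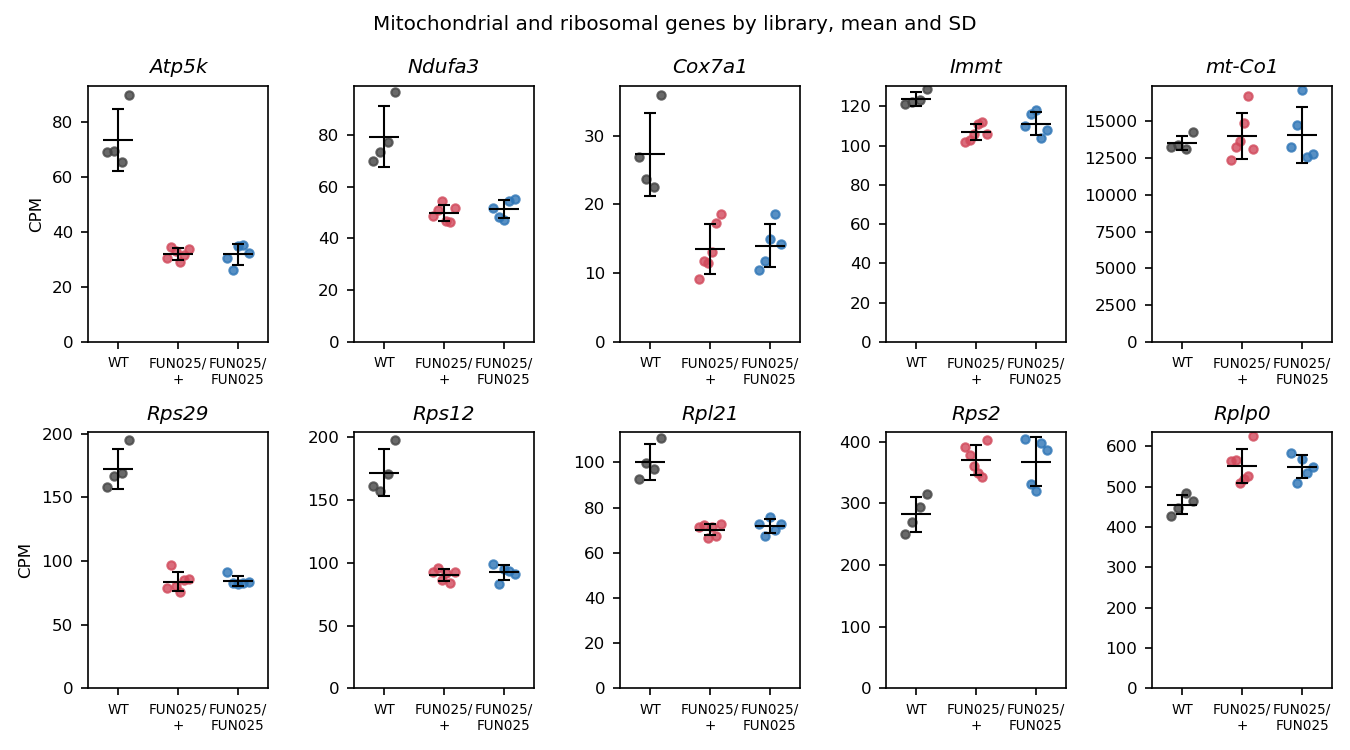
CPM of 5 mitochondrial and 5 cytosolic ribosomal protein genes (vertical axes, from 0) in each WT, FUN025/+ and FUN025/FUN025 library, with the mean as a line and the SD as bars. For Atp5k (28.9 to 34.4 CPM against 65.5 to 90 CPM) and Rps29 (75.4 to 96.5 CPM against 158 to 195 CPM) the FUN025/+ libraries lie below all WT libraries, mt-Co1 overlaps, and Rps2 and Rplp0 lie higher in FUN025/+ libraries.

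Muscle genes were lower in most FUN025/+ libraries. Extraocular muscle attaches to the sclera and can stay on a dissected eyecup, and in bulk tissue fewer cells of a type and less RNA per cell cannot be told apart. All 38 contractile genes of striated muscle had a negative log2 fold change (median -0.63). The test was passed by 10 of them (26.3%, against 6.79% of all genes tested that were lower), or 7 with the GC offset. The list summed to 8886, 10414, 13412 and 15594 CPM in WT libraries and to 5010.2 (lowest), 6642 (median) and 11945 CPM (highest) in FUN025/+ libraries. FUN025/+ replicates 5 and 6 lay within the WT range and the other 4 below it. Desmin (Des), an intermediate filament of muscle, was at 173, 183, 206 and 255 CPM in WT and at 108, 114 and 173 CPM in FUN025/+ libraries (-0.67, adjusted p = 0.00702), and Actn2, an actinin of the Z disc, at 70.1 to 90 CPM and 39.1 to 67.7 CPM (-0.69, adjusted p = 0.00769). The number of muscle genes that fell was 3 without WT replicate 4 and 21 without FUN025/+ replicate 5.

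Some of the largest falls were of genes outside the contractile list that, chosen after their values were seen, are known from muscle. They were Myod1, a transcription factor of muscle precursors (1.15 to 2.65 CPM in WT and 0.368 to 1.07 CPM in FUN025/+ libraries, log2 fold change -1.32, adjusted p = 0.0089), Xirp1, an actin-binding protein of muscle junctions (-0.89, adjusted p = 0.000105), Jsrp1, of the sarcoplasmic reticulum (-0.92, adjusted p = 0.00473), and Cox7a1, Eef1a2 and Ucp3 above. Xirp1 was at 9.04 to 12.1 CPM in WT and 4.86 to 7.34 CPM in FUN025/+ libraries. The rule for the largest rises and falls admits only genes without overlap between the genotypes.

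Photoreceptor transcripts varied widely between mice. Of 34 phototransduction genes, 0 passed edgeR's quasi-likelihood test, although 29 had a negative log2 fold change. The list summed to 1877, 2239, 2746 and 4853 CPM in WT and 1859 to 2631 CPM in FUN025/+ libraries, and its median moved from -1.17 to -0.29 without WT replicate 2 and FUN025/+ replicate 6. Of 29 synaptic vesicle genes 3 fell, Rims1 (-1), Unc13a (-0.34) and Rab3a (-0.32), that is, 10.3% against 6.79% of all genes tested. Without those 2 libraries, or with the GC offset, 1 fell, and 6 fell without WT replicate 3. Syt13, a synaptotagmin, and Kcnj9, a neuronal potassium channel, had the largest falls of all genes by the rule for named genes, -1.71 and -1.69. Both were highest in WT replicate 2, at 6.72 and 6.88 CPM against at most 2.43 CPM in the other WT libraries and 1.62 and 1.57 CPM in FUN025/+ libraries, and Kcnj9 did not pass without it.

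Few RPE and pigment genes differed. Of 33 genes of the visual cycle and RPE identity, 1 rose (3.03%, against 7.62% of all genes tested) and 0 fell (against 6.79%). The gene that rose was Trpm3, a cation channel, at 1274, 1353, 1372 and 1377 CPM in WT and 1434, 1617 and 1727 CPM in FUN025/+ libraries (0.25, adjusted p = 0.0146). It did not pass without WT replicate 3. Rpe65, the isomerase of the visual cycle, was at 1968 ± 204 CPM (SD, n = 4) and 2231 ± 291 CPM (SD, n = 6), which did not pass the test (0.18, adjusted p = 0.27). Of 19 melanin synthesis genes, 0 passed edgeR's quasi-likelihood test, and Dct, a melanin enzyme, was at 3859.8 ± 327 and 3892 ± 239.8 CPM.

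The endothelium of the choroid had 13 of 31 genes lower (41.9%, against 6.79% of all genes tested) and 0 higher, with a median of -0.18. They included Robo4, a guidance receptor of vessels, at 34.8, 35.6, 39.2 and 43.1 CPM in WT and 24.2, 29.2 and 32.6 CPM in FUN025/+ libraries (-0.40, adjusted p = 0.00301), Procr, the protein C receptor (-0.35, adjusted p = 0.00717), Lyl1, a transcription factor (-0.40, adjusted p = 0.00832), and Cdh5, the cadherin of endothelial junctions (-0.26). Pecam1, Kdr and Emcn, which mark the same cells, changed by -0.16, -0.03 and -0.15 and did not pass. With the GC offset 3 of the 31 genes fell, and the list's median GC content was 53.7%. Leaving out WT replicate 4 likewise left 3. With the muscle and photoreceptor levels of each library as covariates 1 fell, with a median of -0.35.

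**Figure D5:**
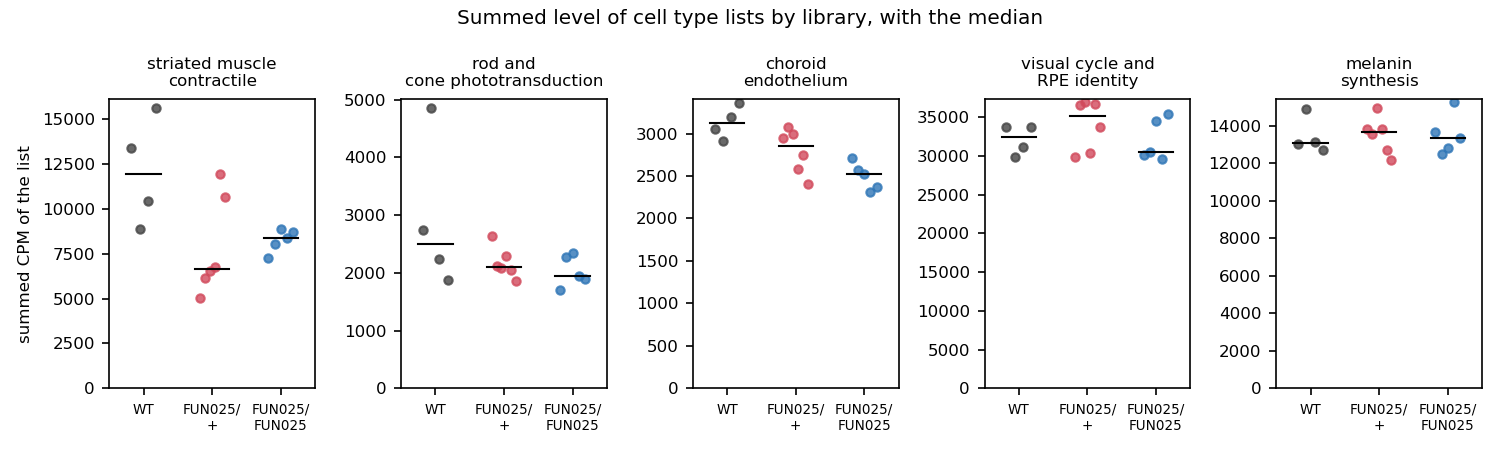
Summed CPM of 5 cell type lists (vertical axes, from 0) in each WT, FUN025/+ and FUN025/FUN025 library, with the median of each genotype as a line. Striated muscle runs from 8886 to 15594 CPM in WT and from 5010.2 to 11945 CPM in FUN025/+ libraries, phototransduction is highest in 1 WT library at 4853 CPM, and the RPE and melanin lists overlap between genotypes.

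In the integrated stress and unfolded protein response, 3 of 33 genes fell (9.09%, against 6.79% of all genes tested) and 2 rose (6.06%, against 7.62%). Under the GC offset 4 fell and 0 rose, and leaving out single libraries gave 2 to 6 lower (6 without WT replicate 1) and 0 to 4 higher (0 without WT replicate 3 and 3 other libraries). Atf4, its central transcription factor, was at 122, 127, 133 and 141 CPM in WT and at 91.6, 99.4 and 108 CPM in FUN025/+ libraries (-0.39, SE 0.0524, adjusted p = 0.000104), and Hspa5, the chaperone BiP, at 455 to 531 CPM and 336 to 418 CPM (-0.38, adjusted p = 0.00169). Ddit3 (CHOP) fell too (-0.33, adjusted p = 0.0201), though not without WT replicate 2, 3 or 4, while Atf6 and Canx rose by 0.22 and 0.17. Ppp1r15a (GADD34), an Atf4 target that is not on the list, was at 34 to 39.9 CPM and 20.3 to 26.7 CPM (-0.65, adjusted p = 2.07e-05). Of 14 heat shock genes 4 fell (28.6%, against 6.79% of all genes tested), 3 with the GC offset and 0 with the muscle and photoreceptor covariates, among them Hsf1, the heat shock transcription factor, at 47.8, 48.4, 49.4 and 51.1 CPM in WT and 36, 39.4 and 41.2 CPM in FUN025/+ libraries (-0.33, adjusted p = 0.000799), with Hsph1 (-0.31), Bag3 (-0.35) and Hspb8 (-0.32). Of 28 NRF2 targets, 1 rose (Gstp1, 0.24) and 0 fell, and with the GC offset 1 rose and 1 fell.

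The circadian clock had 5 of 24 genes higher (20.8%, against 7.62% of all genes tested) and 3 lower (12.5%, against 6.79%), and 5 and 2 with the GC offset. Without WT replicate 2, and in 1 other such fit, 3 were higher. Arntl (BMAL1), the activator of the clock, was at 13, 14.4, 14.4 and 20.5 CPM in WT and at 6.93, 8.43 and 11.3 CPM in FUN025/+ libraries (-0.83, SE 0.186, adjusted p = 0.00722). Its repressor Nr1d2 (242 to 271 CPM and 299 to 331 CPM, 0.25, adjusted p = 0.00581), the competing activator Rora (0.28, adjusted p = 0.00265) and the output factor Hlf (0.37, adjusted p = 0.00594) rose, as did Per3 and Tef. Nfil3 and Csnk1e fell, the former not without WT replicate 2 or 4 or FUN025/+ replicate 1 or 3. The labels give a collection window around noon for all mice, and the hour of each mouse is not given, so the time of collection within the window cannot be told apart from genotype.

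Signalling, matrix and complement lists are read against the 7.62% of all genes tested that were higher and the 6.79% that were lower. In Wnt, BMP and TGF-beta signalling, 10.3% were higher and 7.69% lower, in the collagens and in complement and coagulation 5.88% and 11.8%, and among elastic fibre, proteoglycan and matrix turnover genes 0% and 2.63% (1 gene lower, 0 with the GC offset). In the first, the Wnt co-receptor Lrp6 (186 to 242 CPM and 256 to 297 CPM, 0.32, adjusted p = 0.00506), the ligand Bmp8b (4.56 to 5.32 CPM and 6.27 to 7.91 CPM, 0.52, adjusted p = 0.00571), Sfrp1 and Wnt2b rose. The BMP response genes Id1 (-0.50, adjusted p = 0.00459), Smad6 (-0.26) and Smad7 (-0.23) fell, and with the GC offset 4 genes of the list rose and 1 fell. Leaving out single libraries gave 2 to 4 higher (2 without WT replicate 4 and 1 other library) and 1 to 5 lower (5 without FUN025/+ replicate 4 and 1 without WT replicate 3 and 2 other libraries). Of 34 collagens, Col8a1, of the basement membrane under the choroidal vessels and cornea (0.38, adjusted p = 0.00821), and Col4a4 (0.23) rose, and 4 fell, led by Col11a2 (-0.49, adjusted p = 0.00341), or 2 and 1 with the GC offset. Without WT replicate 4, 1 collagen fell. Of 34 complement and coagulation genes, 2 rose and 4 fell, and with the GC offset 0 rose and 4 fell. Leaving out single libraries gave 0 to 2 higher (0 without WT replicate 2 and 1 other library) and 2 to 6 lower (2 without WT replicate 4, 6 without FUN025/+ replicate 2). Procr, Thbd, Plat and Vtn, which restrain clotting, dissolve clots or bind the matrix, fell, Thbd and Plat not without WT replicate 4 and Vtn not with the GC offset.

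The other immune and cell type lists, against the same shares of all genes, were as follows. Antigen presentation had 2 of 23 genes lower (8.7%), Tapbp (-0.16) and Cd74 (-0.44), which were lost with the GC offset. The number was 0 without WT replicate 4 and 4 without WT replicate 3, and Cd74 lost the call in 8 of the 10 fits that left out a library and Tapbp in 2. Macrophage and microglia genes had 2 of 30 lower (Cd63 and Spp1, 1 with the GC offset), interferon-stimulated genes 1 higher and 1 lower of 32 (0 and 1 with the offset), and myelin and Schwann cell genes 2 of 21 lower (9.52%). None of 24 cell cycle genes passed. Among 39 spliceosome genes, of which 7.69% were higher and 12.8% lower, Srsf5 (0.27, adjusted p = 0.00122), Snrpc and Sf3b1 rose and 5 fell, with Snrnp70 at -0.29 (adjusted p = 0.000513), or 2 and 5 with the GC offset. Single left-out libraries gave 1 to 4 higher (1 without WT replicate 3) and 3 to 7 lower (3 without WT replicate 2 and 3 other libraries).

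Among protein-coding genes that passed the test, the largest rise belonged to Nphs1, which encodes nephrin of the kidney filter and lies on chromosome 7 (30458315 to 30487223). It was at 0.914, 1.16, 1.25 and 1.38 CPM in WT and at 9.48, 10.1 and 12.2 CPM in FUN025/+ libraries, so every FUN025/+ library was far above every WT library (8.84-fold, log2 fold change 3.14, SE 0.143, adjusted p = 3.66e-10). FUN025/FUN025 libraries had a mean of 9.75 CPM, and the difference between the mutant genotypes was -0.11 (adjusted p = 1). Gadl1, a decarboxylase related to those of amino acid metabolism, was at 0.994, 0.998, 1.3 and 1.67 CPM in WT and at 3.59, 4.04 and 4.59 CPM in FUN025/+ libraries (1.70, adjusted p = 2.37e-05). Lars2, the mitochondrial leucyl-tRNA synthetase, was at 81.4 to 89 CPM in WT and 292 to 544 CPM in FUN025/+ libraries (2.23, adjusted p = 5.71e-06). Its highest and lowest FUN025/+ values were in the libraries with the highest and lowest Gm42418 level, replicates 6 and 5, and the part of ribosomal RNA in them was not tested.

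After these 3 genes and mt-Atp8, the others of the 15 largest rises named by the rule were under 1 on the log2 scale. Lcor, a corepressor of nuclear receptors, was at 3.7, 5.66, 5.77 and 6.88 CPM in WT and at 8.34, 10.4 and 13.9 CPM in FUN025/+ libraries (0.93, adjusted p = 0.00113). Sgcd, a sarcoglycan of muscle and vessel membranes, rose by 0.92 (adjusted p = 0.000207) although the muscle lists were lower. Adamts19 (0.91), Myocos (0.87), Mroh8 (0.81), Klhl11 (0.77), Dchs2 (0.74), Sp9 (0.72), Zkscan16 (0.70), Prss35 (0.67) and BC035947 (0.64) followed. Most of them were at low levels, such as Sp9, a zinc finger transcription factor, at 3.71 to 4.26 CPM in WT and 5.61 to 8.15 CPM in FUN025/+ libraries (adjusted p = 0.000422).

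Among the falls not yet described were 2 transcription factors of eye and brain development. Pax2, which marks optic stalk and optic nerve head, was at 1.56 to 3.53 CPM in WT and 0.221 to 1.41 CPM in FUN025/+ libraries (-1.41, adjusted p = 0.0217), and Lmx1a at 1.77 to 3.41 CPM and 0.656 to 1.72 CPM (-1.04, adjusted p = 0.0187). Pax2 did not pass without WT replicate 4, nor Lmx1a without WT replicate 3, and the lowest Pax2 value is at the floor of 3 counts. Cma1, a mast cell protease, fell by 0.96 (adjusted p = 0.0187), the neuronal gene Fam196a by 0.88 (adjusted p = 0.0377) and the sialidase Neu2 by 0.83 (adjusted p = 0.0208) on the log2 scale. Without WT replicate 4, Cma1 and Neu2 did not pass. Of the genes with the smallest p, Map7d1, a microtubule protein, was at 148, 155, 157 and 176 CPM in WT and at 109, 113 and 115 CPM in FUN025/+ libraries (-0.50, SE 0.0458, adjusted p = 1.08e-06), Dlgap4, a scaffold protein, was at 94.5 to 105 CPM and 69.7 to 80.6 CPM (-0.43, adjusted p = 2.38e-05), and Cbx3, a heterochromatin protein, rose from 47 to 53.2 CPM to 68.5 to 76.9 CPM (0.51, adjusted p = 2.7e-06).

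The step from 1 to 2 mutant alleles was tested for the genes that differed between FUN025/+ and WT eyecups. Between FUN025/FUN025 and FUN025/+ eyecups 92 genes differed (0.517% of those tested), and 21 of these were among the 2563 genes called in FUN025/+ eyecups. Of the 21, 10 were higher in FUN025/+ than WT and higher still in FUN025/FUN025 eyecups, 5 were higher and then lower, 3 lower and then higher and 3 lower in both steps. Both comparisons share the FUN025/+ libraries. Among the 10 genes that rose in both steps were 6 lipid genes, Scd2 (510.2, 655 and 1266 CPM on average in WT, FUN025/+ and FUN025/FUN025 eyecups), Fads1 (247, 277 and 412 CPM), Insig1 (75.7, 114 and 178 CPM), Idh1 (76.3, 90.8 and 108 CPM), Dhcr7 (25.3, 30.9 and 38.8 CPM) and Acaca (72.5, 81 and 96.5 CPM). The log2 differences between the mutant genotypes were 0.95 for Scd2, 0.57 for Fads1, 0.64 for Insig1, 0.25 for Idh1 and Acaca and 0.33 for Dhcr7.

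Elovl2, which extends long polyunsaturated fatty acids, went the other way. It was at 24.1, 28.4, 30 and 32.8 CPM in WT and at 30.3, 38.4 and 41.3 CPM in FUN025/+ libraries, and its mean in FUN025/FUN025 eyecups was 22.2 CPM. It rose from WT to FUN025/+ by 0.38 (adjusted p = 0.0149) and fell from FUN025/+ to FUN025/FUN025 by 0.76 on the log2 scale (adjusted p = 0.000202). Its rise from WT did not pass without WT replicate 3. Sostdc1, an inhibitor of BMP and Wnt signals, and Lrtm2 were also higher in FUN025/+ than in the other genotypes, with means of 107, 130.1 and 91.5 CPM for Sostdc1 and 23.3, 29 and 20.5 CPM for Lrtm2. Dbi, the acyl-CoA binding protein, was lower in FUN025/+ than in either other genotype, at 114, 126, 129 and 143 CPM in WT, 81.9, 95.2 and 113 CPM in FUN025/+ and 124 CPM on average in FUN025/FUN025 libraries (-0.43, adjusted p = 0.00115 against WT, and 0.39, adjusted p = 0.0129, for FUN025/FUN025 minus FUN025/+). Olfm1, a secreted protein of neurons, fell with each allele (114, 99.2 and 79.7 CPM). With the GC offset its fall from WT to FUN025/+ was -0.13 and did not pass the test (adjusted p = 0.0635).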

How the data were processed

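The authors deposited whole-number read counts per Ensembl gene for each library, without normalization. Per the labels, the processing notes name FastQC 0.11.8, Trimmomatic 0.39, HISAT2 2.1.0, SAMtools and featureCounts 2.0.0 and the build GRCm38; strand settings are not given in the sources used here. Gene names, types and exons came from GENCODE M21, with an entry for 55240 of the listed genes. Counts of the kept genes were scaled by TMM, and all 15 libraries entered 1 quasi-likelihood fit of 3 genotypes with robust dispersion (edgeR 4.0.16, R 4.3.3), with Benjamini-Hochberg adjustment over 17786 genes and a threshold of 0.05. Groups came from the sample labels. The GC offset was a loess of log counts on exonic GC in each library. Shared sequence is the share of exonic stretches of 31 bases found in other genes.

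Named genes were Tmem135; among protein-coding genes called, with a mean of 1 CPM or more, no overlap, a named symbol and at most 20% shared sequence, the 15 largest rises, the 15 largest falls and the 10 smallest p; and the 3 smallest p in each direction of each gene list, or its 2 highest genes where none passed. Other genes were chosen after their values were seen, and some genes that the rule names are not reported here. The members and the gene lists were chosen with earlier results of these data known. No pair of libraries held identical values. The fits were tested on simulated counts. Alternatives were other scalings, filters, tests (DESeq2 1.42.0, limma 3.58.1), thinning to equal depth, protein-coding genes alone, covariates (Xist, or the mean log2 CPM of the muscle and phototransduction lists), a replicate block and left-out libraries. Length offsets and leaving out WT replicate 2 with FUN025/+ replicate 6 were chosen after seeing the data.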

Additional observations from a re-analysis of the deposited data

Results flagged for a closer look

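In 256 groups of 4 or 6 libraries tested for single values far from the rest, 13 were set apart by a gap that chance gives in about 1 of 20 groups, so that this number is about what chance gives. WT replicate 2 was high for Kcnj9 (6.88 CPM, next 2.43), Syt13 (6.72 CPM, next 2.43), Ucp3 (17.3 CPM, next 14.2) and mt-Co3 (33.7 CPM, next 19.6) and low for Mrpl47 (37.2 CPM, next 40.1). WT replicate 4 was high for Atp5k (90 CPM, next 69.4), Snrnp70 (439 CPM, next 394) and Fads1 (253 CPM, next 245) and low for Nr1d2 (242 CPM, next 266). In FUN025/+ libraries, replicate 6 was high for Elovl6 (85.4 CPM, next 70.2) and low for Srsf5 (686 CPM, next 748), replicate 1 was low for Mrpl47 (39.3 CPM, next 47.3), and replicate 5 was high for mt-Co3 (179.5 CPM, next 93.5). For Atp5k, Snrnp70, Ucp3, Kcnj9, Syt13, Nr1d2 and, in WT replicate 2, Mrpl47, the value set apart lay further from the FUN025/+ libraries than the other WT values.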

How the results depend on the processing

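A batch of the WT mice and genotype cannot be told apart, and 3 counts limit values under about 0.275 CPM. With the muscle and phototransduction levels of each library as covariates, 273 genes were called (241 of them among the 2563), 160 higher and 113 lower, 173 protein-coding, 90 beyond 2-fold (64 higher and 26 lower) and 3 between FUN025/FUN025 and FUN025/+ among the genes called. Tmem135 stood at 0.34 and did not pass, and Ddit3 and Plin4 changed sign to 0.08 and 0.28. With the GC offset 1264 protein-coding genes were called and Tmem135 was 0.17 and not called, and with GC and length offsets it was 0.17 and not called. Genes beyond 2-fold numbered 465 (266 lower) with no filter on low counts, 119 (22 lower) with 10 counts required in each library, and 46 (23 higher and 23 lower) with protein-coding genes alone. DESeq2 called 34 of the genes between the mutant genotypes. Without WT replicate 2 and FUN025/+ replicate 6 together, 799 genes were lower and 12 of the genes called differed between the mutant genotypes. Leaving out each library gave 1456 (without WT replicate 4) to 2734 (without WT replicate 1) genes called, 818 to 1440 higher and 638 to 1294 lower, 1044 to 2118 protein-coding, 189 to 280 beyond 2-fold (129 to 177 higher, 54 to 103 lower), 14 to 20 between the mutant genotypes, and 0.19 to 0.27 for Tmem135. A block on replicate number gave 2048 calls, 1741 of them among the 2563, and Tmem135 was 0.24. The same number does not mark a shared animal, and the deviations of same-numbered libraries had correlations of -0.44 to -0.09, so the numbers were not read as pairs. Over 127 single genes and the alternatives tried for them, 3677 cases in all, 3426 were counted as kept, the call was lost in 249 and the sign changed in 2. Genes that had not passed the test, such as Fasn, Scd1 and Rpe65, were counted as kept in all 29 settings. Many called genes, among them Insig1, Idi1, Hmgcs1, Idh1 and Pdk4, lost the call in 1 setting, the muscle and phototransduction covariates. The cause of these changes was not tested.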
